A study of Mus musculus with 12 samples.

Results

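The 10 genes described here, Hk2, Gpi1, Pfkl, Aldoa, Tpi1, Gapdh, Pgk1, Pgam1, Eno1 and Ldha, encode enzymes of glycolysis in the mouse. They were chosen by name, and make up 10 of 34079 genes and 56 of 121429 transcripts with an exonic value. The study exposed mouse embryonic stem cells (mESCs) of the DTCM23/49 XY line to 200 µM 4-thiouridine (4sU), a uridine analog that cells build into new RNA, for 15, 30 or 60 min. RNA that had taken up 4sU was biotinylated and captured on streptavidin beads (labeled RNA), and total RNA was sequenced beside it. Each of the 6 groups, labeled or total RNA at 3 labeling times, held 2 libraries, 12 in all. The 2 replicates were subcultures of one parent culture, grown with LIF and serum on gelatin. Apart from the block fits below, no fit had a replicate term, so p-values measure the remaining spread among libraries of this culture. They do not measure the spread between independent cultures. Cells of the total RNA groups also received 4sU, and no group was free of it.

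Glycolysis converts glucose to pyruvate in the cytosol. Its first enzymes trap and split the sugar at the cost of ATP, the later ones recover ATP and NADH from the triose phosphates, and lactate dehydrogenase turns pyruvate into lactate and regenerates NAD. Pluripotent stem cells are known for high glycolytic activity. After a short 4sU pulse, captured RNA is enriched for recently made molecules, among them unspliced RNA.

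Exons and introns of each transcript were given separate length-normalized abundances. They are called the exonic and the intronic value here, and were added over the transcripts of a gene. All libraries were scaled to nearly the same sum (19988830 to 19992902), so a value is a share of the library and not an amount of RNA. Fewer cells and less RNA per cell cannot be told apart in such bulk samples. Introns took 14.8%, 9.35% and 13.9% of the values in labeled RNA of replicate 1 at 15, 30 and 60 min, and 7.24%, 10.8% and 6.99% in labeled RNA of replicate 2. In total RNA the share lay between 6.53% and 7.41%. The labeled libraries of replicate 2 at 15 and 60 min therefore lay within the range of total RNA, and the main counts below are also given without them.

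The identity of the cells was checked against marker genes. All 8 pluripotency markers had values in total RNA, led by Dppa5a at 6766 ± 799 (SD, n = 6), and Pou5f1, which encodes Oct4, stood at 1645 ± 121. The 5 fibroblast markers added up to at most 55.8 in any library, led by Thy1, with 1 of them at 0 throughout total RNA. The 4 primitive endoderm markers summed to at most 72.3, led by Dab2, again with 1 at 0 throughout total RNA, and the 3 mesendoderm markers to at most 22.2, led by Eomes. The neural markers Pax6 and Nes added up to between 43.6 and 216, the highest in labeled RNA of replicate 2 at 60 min.

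Promoter sequences were taken from RefSeq (assembly GRCm38.p6) as windows from 250 bases before to 50 bases after a transcript start. The letters ACGTG, the core shared by hypoxia response elements and many E-boxes, were searched on both strands. They were found in 19.6% of all 32851 windows and in 7 of the 15 windows of the glycolysis genes, which belong to 6 genes (Hk2, Gapdh, Ldha, Aldoa, Pgam1 and Pgk1). Overlapping windows of 1 gene share sequence. The letters GCGTG were in 32.4% of all windows and in 8 of the 15, and the Sp1-type letters GGGCGG in 35.7% of all and in 11 of the 15. No glycolysis window held TATAAA, which was in 13.6% of all windows. The GC share of the 15 windows ran from 52.7% to 69%, against a median of 52.7% for all windows. A match describes the sequence and shows no binding. The 4 windows below are shown because Ldha, Pgk1 and Hk2 held more than 1 stretch of ACGTG and because Pgam1 and Hk2 mark the extremes of the exonic results. Capitals mark ACGTG on either strand. In Ldha, 2 of the 3 stretches form CACGTG, which reads the same on both strands, includes ACGTG and was in 7.15% of all windows.
Ldha, chr7:46845554-46845853, plus strand: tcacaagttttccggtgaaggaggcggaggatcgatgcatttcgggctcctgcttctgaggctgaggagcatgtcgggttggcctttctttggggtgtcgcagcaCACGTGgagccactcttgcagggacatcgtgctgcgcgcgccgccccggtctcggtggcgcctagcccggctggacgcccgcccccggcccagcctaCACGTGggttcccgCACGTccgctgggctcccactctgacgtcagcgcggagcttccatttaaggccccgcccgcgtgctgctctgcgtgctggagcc
Pgk1, chrX:106186850-106187149, plus strand: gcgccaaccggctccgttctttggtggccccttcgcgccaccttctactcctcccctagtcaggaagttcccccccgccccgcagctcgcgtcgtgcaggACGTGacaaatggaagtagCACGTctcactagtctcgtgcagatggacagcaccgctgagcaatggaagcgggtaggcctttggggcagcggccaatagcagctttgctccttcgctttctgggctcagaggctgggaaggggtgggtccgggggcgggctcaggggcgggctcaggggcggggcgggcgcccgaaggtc
Pgam1, chr19:41911621-41911920, plus strand: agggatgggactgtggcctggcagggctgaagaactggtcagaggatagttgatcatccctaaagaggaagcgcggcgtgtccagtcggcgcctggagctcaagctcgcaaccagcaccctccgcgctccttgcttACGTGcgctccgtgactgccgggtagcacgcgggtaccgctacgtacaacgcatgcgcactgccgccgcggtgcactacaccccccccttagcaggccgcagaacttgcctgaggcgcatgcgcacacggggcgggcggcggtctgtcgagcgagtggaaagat
Hk2, chr6:82774405-82774704, minus strand: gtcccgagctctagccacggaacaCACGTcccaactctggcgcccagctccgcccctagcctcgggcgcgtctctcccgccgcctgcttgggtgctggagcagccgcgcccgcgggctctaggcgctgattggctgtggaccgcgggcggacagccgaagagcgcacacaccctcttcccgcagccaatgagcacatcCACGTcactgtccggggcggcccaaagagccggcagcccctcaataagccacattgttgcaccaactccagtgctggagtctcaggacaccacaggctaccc

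In labeled RNA the exonic values of 6 of the 10 glycolysis genes were lower than in total RNA (limma on log2(value + 1), labeling time as covariate, Benjamini-Hochberg adjusted p under 0.05 over 13977 genes), against 11.6% of all genes tested. None was higher, against 5.28% of all genes. The 6 were Pgam1, Aldoa, Eno1, Pgk1, Gpi1 and Gapdh. The median log2 difference of the 10 genes was -0.41, and that of all genes tested was -0.05. In a fit that blocked on time and replicate number together, only Pgam1 passed (adjusted p = 0.0157), and 815 of the 13977 genes were lower. Without a filter on low values 4 of the 10 passed, Gapdh and Eno1 no longer among them (limma, adjusted p = 0.155 and 0.0900), and 1265 of 25295 genes were lower. With a stricter minimum mean of 100, 7 of 9 glycolysis genes tested were lower, against 1496 of 8748 genes. The median log2 difference was then -0.43 for the glycolysis genes and -0.11 for all genes tested. Without the 2 labeled libraries of low intronic share, 7 genes passed, with Ldha added, and 2051 of the 13977 genes tested were lower, against 1615 with all libraries.

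Hk2 encodes hexokinase 2, which phosphorylates glucose on entry (chr6:82725025-82774454 in GRCm38.p6). Its exonic value in labeled RNA was 1191 and 762 at 15 min, 918 and 1045 at 30 min and 704 and 1976 at 60 min, replicate 1 first. The total libraries had 1234 and 1556 at 15 min, 915 and 966 at 30 min and 1153 and 844 at 60 min. The groups overlapped, and labeled RNA of replicate 2 at 60 min was the highest of all 12 libraries. The log2 difference (labeled minus total) was -0.07 ± 0.24 (SE, adjusted p = 0.859).

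Gpi1 (chr7:34201327-34230336) encodes glucose phosphate isomerase, which converts glucose phosphate to fructose phosphate. Its exonic value in labeled RNA was 633 and 627 at 15 min, 679 and 650.2 at 30 min and 753 and 543 at 60 min. In total RNA it was 892 and 853 at 15 min, 803 and 816 at 30 min and 803 and 936 at 60 min. All 6 labeled libraries lay below all 6 total libraries. Labeled and total RNA differed on the log2 scale by -0.40 ± 0.10 (SE, adjusted p = 0.0223; adjusted p = 0.0767 with the block).

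Pfkl (chr10:77986947-78009807) encodes the liver-type subunit of phosphofructokinase, the committed step of the pathway. It was the least abundant of the 10, at 85.4 ± 16.5 in labeled and 108 ± 20.7 in total RNA (SD, n = 6 each). The ranges overlapped, and the log2 difference was -0.34 ± 0.16 (SE, adjusted p = 0.159).

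Aldoa (chr7:126795234-126800994) encodes aldolase A, which splits fructose bisphosphate into triose phosphates. Its exonic value in labeled RNA was 3838 and 6284 at 15 min, 5338 and 4741 at 30 min and 5459 and 3687 at 60 min. The total libraries had 7978 and 6349.7 at 15 min, 7840.2 and 7854 at 30 min and 5985 and 8795 at 60 min. The ranges overlapped through labeled 15 min replicate 2 and total 60 min replicate 1, and every labeled library was below the total library of its own time and number. On the log2 scale the difference was -0.62 ± 0.15 (SE, adjusted p = 0.0181; adjusted p = 0.0632 with the block).

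Tpi1 (chr6:124810586-124814158) encodes triosephosphate isomerase, which interconverts the triose phosphates. It stood at 628 ± 66.8 in labeled and 732 ± 110.5 in total RNA (SD, n = 6 each), with overlapping ranges. The log2 difference was -0.22 ± 0.12 (SE, adjusted p = 0.238).

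Gapdh (chr6:125161852-125166467) encodes glyceraldehyde phosphate dehydrogenase, the NADH-producing step, and is widely used as a reference gene. Its exonic value in labeled RNA was 89019 and 93903 at 15 min, 96075 and 93989 at 30 min and 77342 and 74403 at 60 min. It was, in total RNA, 114089 and 110158 at 15 min, 100498 and 111150 at 30 min and 110806 and 112501 at 60 min. No labeled library reached any total library, and both labeled libraries at 60 min were lower than the other 4. The log2 difference was -0.34 ± 0.08 (SE, adjusted p = 0.0160; adjusted p = 0.0689 with the block), a fold of 0.793.

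Pgk1 (chrX:106187100-106203699) encodes phosphoglycerate kinase, the first ATP-generating enzyme of the pathway. It stood at 2762 ± 419 in labeled and 3736 ± 341 in total RNA (SD, n = 6 each). Only labeled 60 min replicate 1, at 3366, entered the range of total RNA, which began at 3229.97. Labeled and total RNA differed on the log2 scale by -0.44 ± 0.12 (SE, adjusted p = 0.0266; adjusted p = 0.0796 with the block).

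Pgam1 (chr19:41911871-41918665) encodes phosphoglycerate mutase, which moves the phosphate group ahead of the enolase step. Its exonic value in labeled RNA was 1487 and 1840.4 at 15 min, 1617 and 1457 at 30 min and 1572 and 959 at 60 min. The total libraries had 3016 and 2924 at 15 min, 2700.2 and 2204 at 30 min and 2370.4 and 2646 at 60 min. Every labeled library lay below every total library. The log2 difference was -0.85 ± 0.13 (SE, adjusted p = 0.00239), the largest of the 10 and at the 2.12 percentile of all genes tested.

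Eno1 (chr4:150236708-150248879) encodes enolase, which forms phosphoenolpyruvate. Its transcripts of highest value in total RNA were annotated as retained introns and are given with the isoforms below. The gene sum stood at 13650.5 ± 3232 in labeled and 19034 ± 2384 in total RNA (SD, n = 6 each), with overlapping ranges. On the log2 scale the difference was -0.51 ± 0.16 (SE, adjusted p = 0.0480; adjusted p = 0.109 with the block). Ldha (chr7:46842274-46855627) encodes the A subunit of lactate dehydrogenase. It stood at 7635 ± 1359 in labeled and 10154 ± 1165 in total RNA (SD, n = 6 each), with overlapping ranges. The log2 difference was -0.43 ± 0.13 (SE), and its adjusted p of 0.05002 missed the threshold narrowly. The lowest total libraries of Eno1, Ldha and Aldoa were the same pair, 15 min replicate 2 and 60 min replicate 1.

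**Figure D1:**
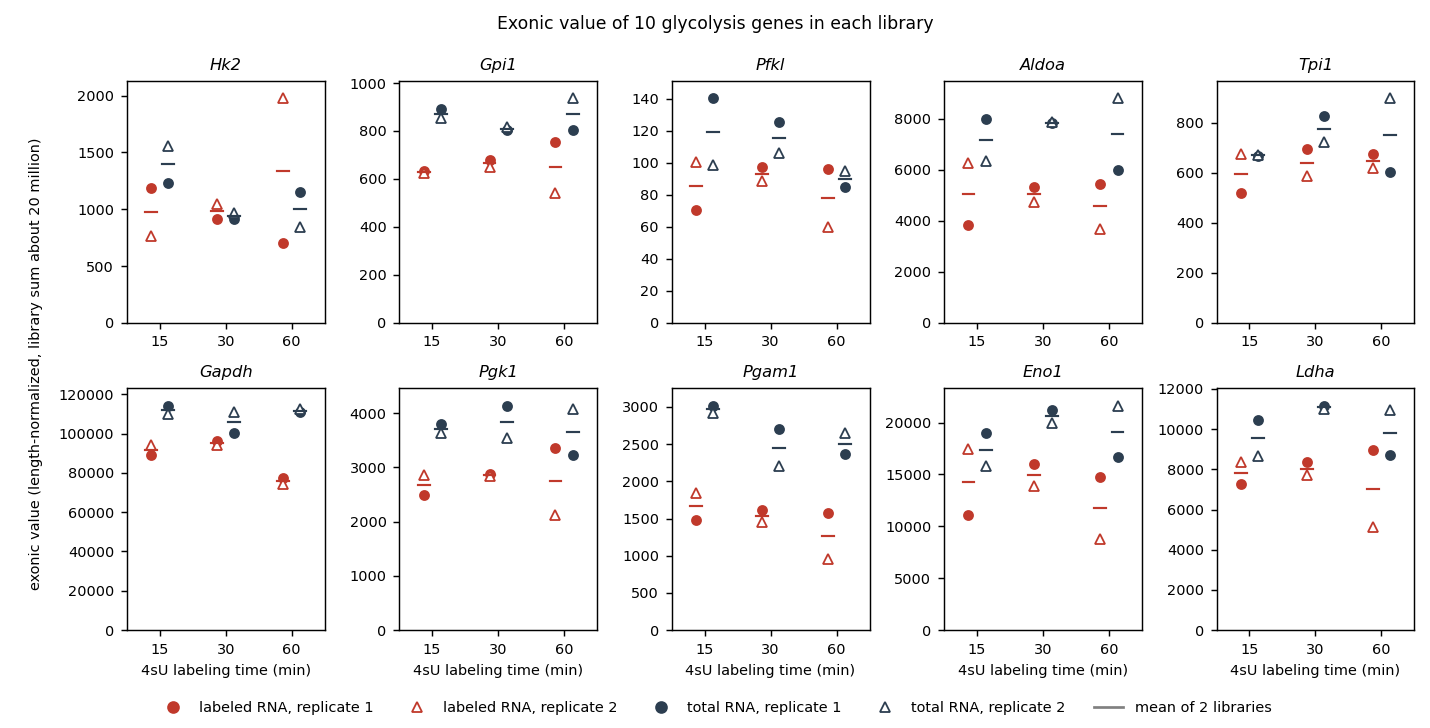
Exonic value of each gene (vertical axes, length-normalized abundance, starting at 0) against 4sU labeling time in minutes, with 1 point per library, circles for replicate 1, triangles for replicate 2 and short lines for the mean of 2 libraries. Labeled libraries of Gpi1, Gapdh and Pgam1 lie below all total libraries, and the labeled Hk2 value of 1976 at 60 min stands above the rest.

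In 3 of the 10 genes (Gpi1, Gapdh and Pgam1) all labeled libraries lay below all total libraries, against 7.28% of all genes tested; in none did they all lie above, against 2.72%. The calls depended on single libraries. Gapdh and Pgam1 passed in all 12 fits that each left out 1 library. Aldoa failed without labeled 30 min replicate 2 or total 15 min replicate 1 (adjusted p = 0.0505 to 0.0528), and Gpi1 without total 15 min replicate 1 or total 60 min replicate 2 (adjusted p = 0.0529 to 0.0582). Pgk1 failed in 6 of the 12 fits, those without labeled 15 min replicate 1, either labeled 30 min library, total 15 or 30 min replicate 1, or total 60 min replicate 2 (adjusted p = 0.0571 to 0.0649). Eno1 passed only without labeled 15 min replicate 2, labeled 60 min replicate 1 or total 15 min replicate 2 (adjusted p = 0.0652 to 0.115 in the other 9), and Ldha passed in the same 3 fits (adjusted p = 0.0168 to 0.0491). The number of genes that passed was 2 without total 15 min replicate 1, and 3 without labeled 30 min replicate 2 or without total 60 min replicate 2. Over all 13977 genes the number lower in these fits was 975, 1025 and 1061.

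Values were also compared within labeling time and replicate number. The ratio of labeled to total exonic value was below 1 in 50 of the 60 combinations of gene, time and replicate. Its median over the 10 genes was 0.677 and 0.909 at 15 min, 0.765 and 0.800 at 30 min and 0.925 and 0.551 at 60 min. Over all genes the median was 0.869 and 1.12 at 15 min, 0.933 and 0.963 at 30 min and 1.12 and 0.779 at 60 min. The glycolysis median was between 0.707 and 0.831 times that of all genes in the 6 pairs, and 54 of the 60 ratios were below the median gene of their pair. Of the 6 that were not, 4 belonged to Hk2, 1 to Gapdh and 1 to Pfkl. The exonic values of the 10 genes together took 0.492% to 0.665% of a labeled library and 0.751% to 0.817% of a total library, ranges that did not overlap. Gapdh made up 66.9% to 75.7% of these sums, and the other 9 genes took 0.119% to 0.195% and 0.198% to 0.254%.

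Introns went the other way. In labeled RNA the intronic values of 6 of the 10 genes were higher than in total RNA (limma, adjusted p under 0.05), against 30.2% of 14780 genes tested, and none was lower, against 0.21% of all genes. The 6 were Tpi1, Gapdh, Eno1, Aldoa, Ldha and Pgam1. The median log2 difference was 1.10 for the 10 genes and 0.65 for all genes. In 3 genes (Gapdh, Eno1 and Ldha) every labeled library was above every total library, against 16.1% of all genes, and in none was every one below, against 0.135%. With the libraries shifted to one median, 54.8% of the intronic calls over all genes were lower in labeled RNA, against 0.690% before, the median of all genes was -0.05, that of the glycolysis genes was 0.39, and 3 of them passed as higher while Hk2 passed as lower (limma, log2 difference -0.86, adjusted p = 0.0385), against 822 higher and 996 lower of the 14780 genes. Without the 2 labeled libraries of low intronic share, 9 glycolysis genes passed, all except Hk2, and 13131 of all genes were higher. These libraries were left out for their low intronic share, so a rise in these counts follows from that choice.

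The intronic value of Gapdh in labeled RNA was 1475 and 733 at 15 min, 1018 and 1315 at 30 min and 1257 and 759 at 60 min. In total RNA it was 319 and 351 at 15 min, 323 and 331 at 30 min and 266 and 251 at 60 min. The lowest labeled library, 15 min replicate 2, was still above every total library, and the log2 difference was 1.79 ± 0.23 (SE, adjusted p = 0.00124). Tpi1 introns stood at 42.6 and 17.1 at 15 min, 32.3 and 24.1 at 30 min and 38.98 and 25.3 at 60 min in labeled RNA. In total RNA they stood at 6.16 and 5.94 at 15 min, 5.87 and 6.02 at 30 min and 5.34 and 19.5 at 60 min. Total 60 min replicate 2 was apart from the other 5 total libraries and above the lowest labeled library. The log2 difference was 1.85 ± 0.33 (SE, adjusted p = 0.00196), the largest of the 10.

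Eno1 introns stood at 873 ± 238 in labeled and 283 ± 65.4 in total RNA (SD, n = 6 each; log2 difference 1.61 ± 0.25, SE, adjusted p = 0.00132), without overlap. Ldha introns, at 298 ± 120.1 and 123 ± 25.9, differed by 1.19 ± 0.30 (SE, adjusted p = 0.0106). Aldoa introns, at 168 ± 52.3 and 62.4 ± 30.6, differed by 1.48 ± 0.33 (SE, adjusted p = 0.00568). Those of Pgam1, at 28.4 ± 10.7 and 12.9 ± 2.29, differed by 1.00 ± 0.30 (SE, adjusted p = 0.0225), and failed without labeled 30 min replicate 2 or any of the 4 total libraries at 15 and 30 min (adjusted p = 0.0523 to 0.0640). Pgk1, Pfkl and Gpi1 did not pass, with log2 differences of 0.88, 0.94 and 0.52 (limma, adjusted p = 0.0629, 0.0561 and 0.219). Pgk1 and Pfkl passed with the block (limma, adjusted p = 0.0239 and 0.0374), and without labeled 15 min replicate 2 or labeled 60 min replicate 2 (adjusted p = 0.00721 to 0.0350). Over all 14780 genes, 5804, 8015 and 7498 were higher in these fits, in that order, against 4463 in the main fit. Hk2 introns stood at 611 ± 109.6 in labeled and 680.3 ± 124 in total RNA, a log2 difference of -0.15 ± 0.21 (SE, adjusted p = 0.551), at the 2.48 percentile of all genes. With the libraries shifted to one median this difference was -0.86 and passed as lower (limma, adjusted p = 0.0385).

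The ratio of intronic to exonic value is taken within a library and is not changed by its scaling, apart from the 1 added to each value. It was higher in labeled RNA for 8 of the 10 genes (limma on the log2 ratio, adjusted p under 0.05), against 25.5% of 10228 genes tested, and lower for none, against 0.205%. The median log2 difference was 1.73 for the 10 genes and 0.70 for all genes. Without the 2 labeled libraries of low intronic share, 9 of the 10 passed, and 8407 of the 10228 genes were higher, a rise that again follows from the choice of libraries by intronic share. In 7 of the 10, all that passed with all libraries but Aldoa, every labeled library was above every total library, against 10.7% of all genes, and in none was every one below, against 0.088%. For Pfkl this rested on the 1 added to each value: without it, labeled 60 min replicate 2 (12.03%) was below total 15 min replicate 2 (12.37%). For Gapdh the intronic value in labeled RNA was 1.66% and 0.781% at 15 min, 1.06% and 1.40% at 30 min and 1.63% and 1.02% at 60 min of the exonic value, and in total RNA 0.223% to 0.321%. The groups stood well apart, and the log2 difference of the ratio was 2.12 ± 0.33 (SE, adjusted p = 0.00428), at the 99.1 percentile of all genes.

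Eno1, Aldoa and Tpi1 differed in the log2 ratio by 2.11 ± 0.38, 2.11 ± 0.46 and 2.07 ± 0.37 (SE; adjusted p = 0.00556, 0.00892 and 0.00535). Pgam1 followed at 1.84 ± 0.34, Ldha at 1.62 ± 0.37, Pgk1 at 1.33 ± 0.37 and Pfkl at 1.28 ± 0.35 (SE; adjusted p = 0.00573, 0.0104, 0.0215 and 0.0197). Differences between genes were not tested. Gpi1 did not pass (0.92 ± 0.36, SE, adjusted p = 0.0660), and passed without labeled 15 min replicate 2 or labeled 60 min replicate 2 (adjusted p = 0.0115 to 0.0346). Over all 10228 genes, 6232 and 3881 were higher in these fits, in that order, against 2609 in the main fit. Pgk1 and Pfkl failed without labeled 30 min replicate 2 or total 15 min replicate 1, Pgk1 also without labeled 60 min replicate 1 or total 60 min replicate 2, and Pfkl also without total 30 min replicate 1 (adjusted p = 0.0527 to 0.0653). Labeled 15 min and 60 min replicate 2, of low intronic share, gave the lowest labeled ratios of Gpi1, Pfkl, Tpi1, Gapdh and Pgam1, whereas for Aldoa and Eno1 labeled 60 min replicate 2 gave the second highest. For Hk2 the difference was -0.08 ± 0.35 (SE, adjusted p = 0.860).

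**Figure D2:**
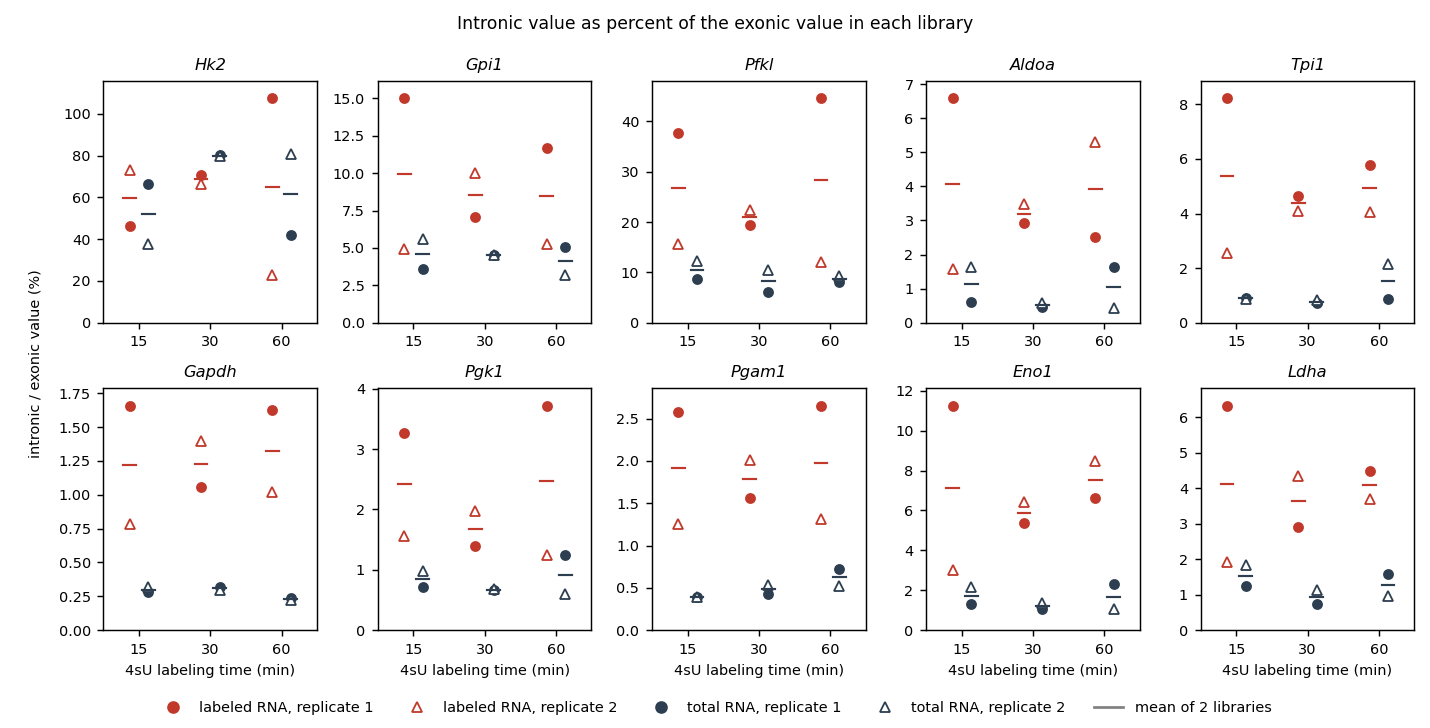
Intronic value as percent of the exonic value (vertical axes, starting at 0) of each gene against 4sU labeling time in minutes, 1 point per library, circles for replicate 1, triangles for replicate 2, short lines for the mean of 2 libraries. Gapdh lies at 0.781% to 1.66% in labeled and at 0.223% to 0.321% in total RNA, and Hk2 at 23.1% to 107% and 37.8% to 81.0%.

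**Figure D3:**
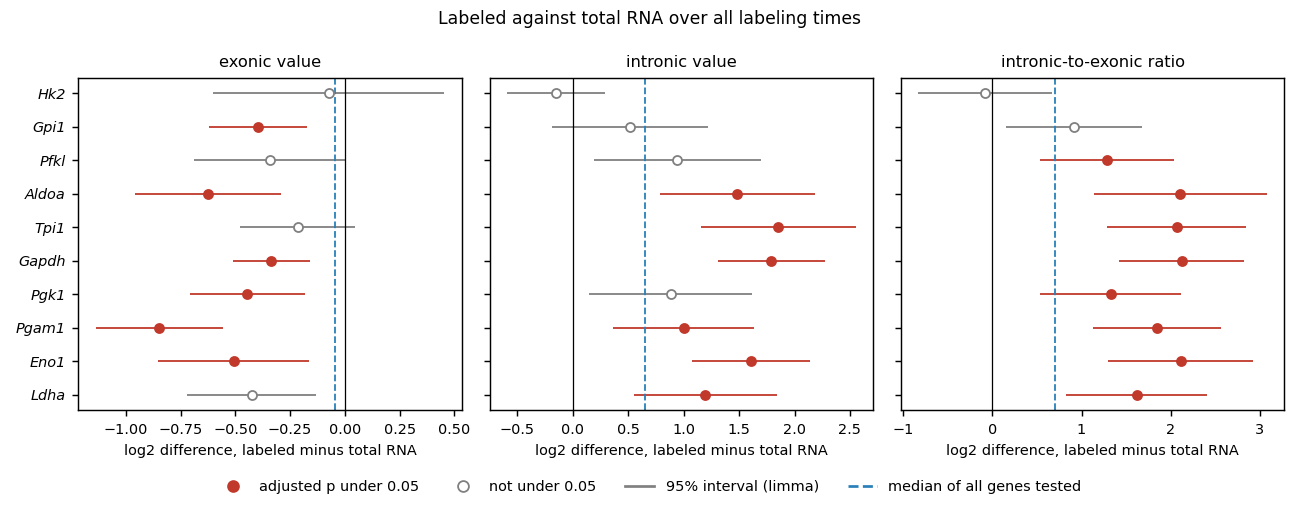
Log2 difference of labeled minus total RNA (horizontal axes) for the exonic value, the intronic value and their ratio, with 95% intervals from limma. Filled points have an adjusted p under 0.05, and the dashed line is the median of all genes tested (-0.05, 0.65 and 0.70); exonic points lie left of 0 and, but for Hk2, intronic and ratio points lie right of it.

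Most of the Hk2 value came from a single isoform. Hk2-004 (ENSMUST00000168725), annotated as a processed transcript of 2 exons and 594 bases, had exonic values of 905 and 521 at 15 min, 660.2 and 731 at 30 min and 434 and 1643 at 60 min in labeled RNA. In total RNA they were 872 and 1229 at 15 min, 621 and 652 at 30 min and 835 and 563 at 60 min. The groups overlapped, and the high labeled library at 60 min was that of the gene sum. Its intronic values were 406 to 612 in labeled and 449 to 779 in total RNA. The other 3 Hk2 transcripts together had exonic values of 284 ± 34.8 in labeled and 316 ± 28.1 in total RNA (SD, n = 6 each), and intronic values of 86.2 ± 64.0 and 41.3 ± 8.27. Without Hk2-004, a choice made after seeing these values, the log2 differences were -0.16 for exons, 0.72 for introns and 0.88 for the ratio (limma, adjusted p = 0.364, 0.205 and 0.141), and none passed.

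Isoforms were examined in a fit over transcripts. Of 54 transcripts of the 10 genes tested, 19 were lower in labeled RNA (limma, adjusted p under 0.05), against 12% of 45537 transcripts, and 3 were higher, against 5.28%. Of 27 protein-coding transcripts tested, 13 were lower and none was higher, against 16.3% and 2.77% of 18963 such transcripts. The 3 higher ones, Gapdh-004, Eno1-003 and Ldha-005, were annotated as retained-intron transcripts, among 20 of that kind, of which 4 were lower, against 6.21% higher and 7.77% lower of 5251 retained-intron transcripts. Gapdh-004 (ENSMUST00000144588) had 417 and 185 at 15 min, 273 and 295 at 30 min and 229 and 224 at 60 min in labeled RNA. In total RNA it had 81.1 and 64.5 at 15 min, 57.4 and 85.5 at 30 min and 117 and 70.4 at 60 min. The groups did not overlap, and the log2 difference was 1.75 ± 0.22 (SE, adjusted p = 0.00123). Eno1-003 (ENSMUST00000130632) stood at 164 to 291 in labeled and 57.6 to 147 in total RNA, without overlap, a log2 difference of 1.202 ± 0.21 (SE, adjusted p = 0.00419). Ldha-005 (ENSMUST00000124696) stood at 60.1 to 135 in labeled and 42.7 to 61.0 in total RNA, overlapping through labeled 15 min replicate 2, a log2 difference of 0.87 ± 0.19 (SE, adjusted p = 0.0124). Of the intronic values of 46 transcripts, 35 were higher and none was lower, against 25% and 0.204% of 51558. Of the 35, 6 had a mean under the minimum of 5 in total RNA and were tested only through labeled RNA, which favors that direction. Isoforms share exons, so the division of reads between them is uncertain: Gapdh-006, the Gapdh transcript of highest value, is itself annotated as a retained intron and stood at 31912 in labeled and 36064 in total RNA on average. For Eno1, the retained-intron Eno1-011 and Eno1-008 averaged 4071 and 4033 in total RNA, and the coding Eno1-002 and Eno1-001 3621 and 3203. The coding pair was lower in labeled RNA, at -0.35 and -0.47 (limma, adjusted p = 0.0261 and 0.0115). Eno1-011 and Eno1-008, both at -0.63, did not pass (limma, adjusted p = 0.0586 and 0.175).

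**Figure D4:**
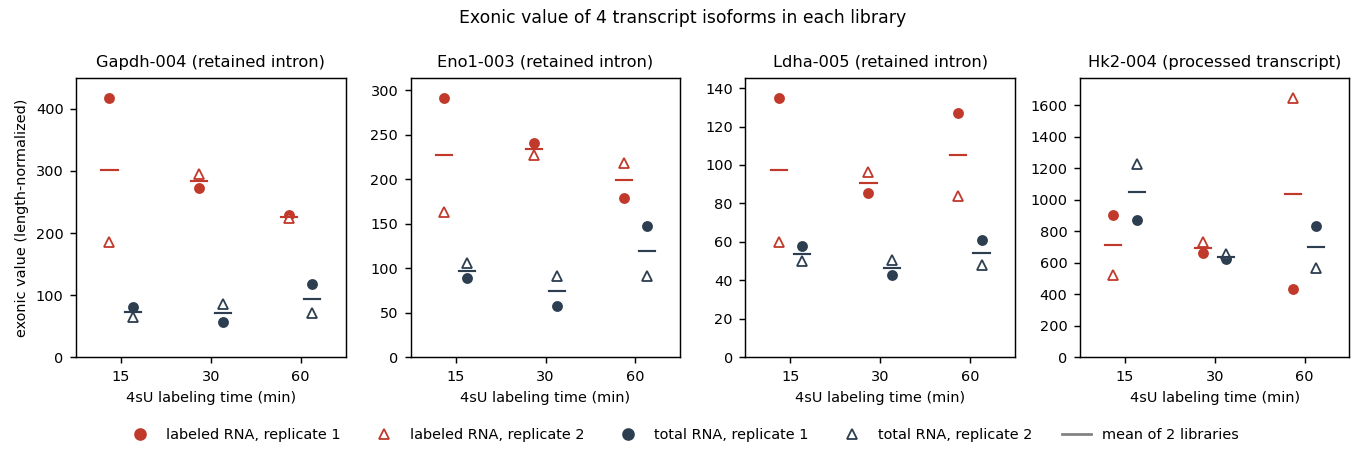
Exonic value (vertical axes, length-normalized, starting at 0) of 4 isoforms against 4sU labeling time in minutes, 1 point per library, circles for replicate 1, triangles for replicate 2, short lines for the mean of 2 libraries. Gapdh-004 and Eno1-003 have all labeled libraries above all total libraries, Ldha-005 overlaps at 1 library, and Hk2-004 reaches 1643 in 1 labeled library at 60 min.

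A change with labeling time was not detectable. Tested at each time with 2 libraries a group, none of the 10 genes passed at 15, 30 or 60 min, and among all genes none passed at 15 or 60 min and 4 (0.0286%), all higher in labeled RNA, at 30 min (limma contrasts over 13977 genes). At an unadjusted p under 0.05 there were 1566, 1656 and 1660 genes, 11.2%, 11.8% and 11.9%. The log2 differences of Pgam1 were -0.84, -0.67 and -1.03 at 15, 30 and 60 min, and those of Gapdh -0.29, -0.15 and -0.56. No gene passed for the change of this difference from 15 to 60 min, where 162 (1.16%) had an unadjusted p under 0.05, and the estimates for the glycolysis genes ran from -0.42 for Eno1 to 0.80 for Hk2. For Gapdh the change was -0.26, with a 95% interval of -0.67 to 0.14, and for Pgam1 it was -0.18, with an interval of -0.96 to 0.60. Labeled RNA at 60 against 15 min, and total RNA likewise, also gave no call among all genes (limma; 178 and 108 genes at an unadjusted p under 0.05, 1.27% and 0.773%). In total RNA the change from 15 to 60 min was -0.01 on the log2 scale for Gapdh, with an interval of -0.29 to 0.28. Without labeled 60 min replicate 1, 520 of all genes passed at 60 min, Pgam1 and Ldha among them (limma, log2 differences of -1.38 and -0.93, adjusted p = 0.0317 and 0.0499); the lone labeled library was then assumed to vary like the other groups.

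Rates were estimated as simple quotients from the mean of the 2 libraries of a group. The study inferred its rates with INSPEcT, which was not run here, so these values cannot be set against those of the study. The synthesis rate was the exonic value of labeled RNA per hour of labeling, the processing rate was synthesis over the intronic value of total RNA, and the degradation rate was synthesis over the exonic minus the intronic value of total RNA. Since all libraries have nearly the same sum, rates fall with labeling time by construction (median degradation rate over all genes 4.74, 2.25 and 1.16 per hour at 15, 30 and 60 min), and they were compared only between genes, mainly as ranks. Averaged over the 3 times, the median percentile of the 10 genes was 91.5 for synthesis (13553 genes), 98.1 for processing (10119 genes) and 10.8 for degradation (9292 genes). These ranks restate the exonic and intronic values and carry no test of their own.

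Gapdh ranked at the 99.96 percentile for synthesis, the 99.7 percentile for processing and the 14.2 percentile for degradation. Pgam1 had the lowest degradation rank, 0.603, at 1.34 per hour against a median gene at 2.71, followed by Aldoa at the 3.59 and Pgk1 at the 6.78 percentile. Eno1, Ldha, Gpi1, Pfkl and Tpi1 ranked between 9.60 and 19.8 for degradation. Processing ranks were between 97.0 and 99.7 for Gapdh, Pgam1, Tpi1, Pgk1, Aldoa, Ldha and Eno1, 85.8 for Gpi1 and 65.5 for Pfkl. Hk2 ranked at 8.42 for processing and 90.9 for degradation, with Hk2-004 included. In total RNA Hk2-004 had a mean exonic value of 795 and a mean intronic value of 639. The other 3 Hk2 transcripts together had 316 and 41.3. Both ranks of Hk2 therefore depend on this isoform, and ranks without it are not given. Pfkl was the only gene of the 10 below the median synthesis rate, at the 32.1 percentile.

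**Figure D5:**
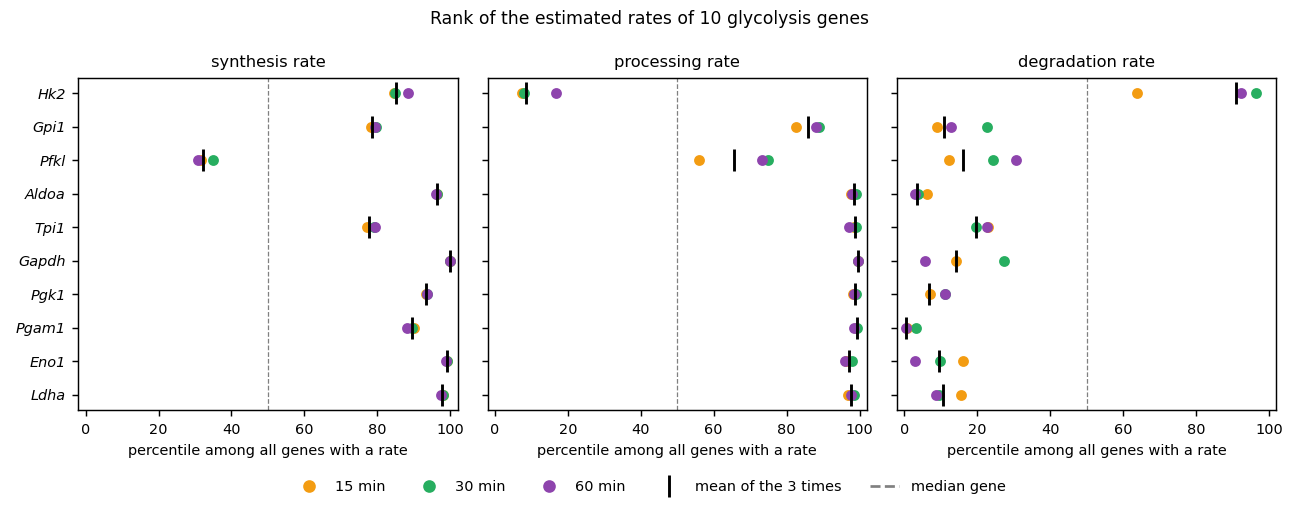
Percentile of each gene's estimated synthesis, processing and degradation rate among all genes with that rate (horizontal axes, 0 to 100), for 15, 30 and 60 min (colored points) and their mean (black bars); the dashed line is the median gene. Pgam1 lies at 0.603 for degradation on average. The Hk2 mean, with all Hk2 transcripts included, lies on the opposite side of the median from the other genes for processing and degradation. Both Hk2 positions depend on its most abundant isoform, and positions without that isoform are not given.

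In order of the exonic value in total RNA the genes were Gapdh (109867 ± 4799, SD, n = 6, rank 6 of 13977 genes), Eno1 (19034 ± 2384), Ldha (10154 ± 1165), Aldoa (7467 ± 1073), Pgk1 (3736 ± 341), Pgam1 (2643 ± 312), Hk2 (1111 ± 263), Gpi1 (851 ± 54.2), Tpi1 (732 ± 110.5) and Pfkl (108 ± 20.7). The ranges of the neighbors Ldha and Aldoa, Hk2 and Gpi1, and Gpi1 and Tpi1 overlapped. By the most abundant coding transcript alone, Ldha (4714) came before Eno1 (3621), Pgam1 (2643) before Pgk1 (1816) and Aldoa (1522), and Hk2 (227) came after Tpi1 (331). Annotated copies of these genes also had values, and reads may have been divided between near-identical sequences. In total RNA Pgk1-rs7 stood at 1981 ± 156, Ldha-ps at 2191 ± 418, Pgam1-ps2 at 557 ± 68.6 and Pgam1-ps1 at 449.6 ± 57.3 (SD, n = 6), so the levels of Pgk1, Ldha and Pgam1 are uncertain to that extent.

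Over the 12 libraries, Pearson's r of a gene's log2 exonic value with the mean profile of the other 9 was between 0.65 for Tpi1 and 0.96 for Aldoa, and -0.42 for Hk2. The libraries share their fraction and composition, so the values are a description. Genes outside the lists most like the mean profile, among 8697 with a mean exonic value of at least 100, included Gm12461 (r = 0.99), R3hdm2, Dnajc13 and Ptma (r = 0.98 each), with log2 differences of -0.83, -0.59, -0.72 and -0.54 between labeled and total RNA.

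4sU replaces uridine, so the uridine content of each mRNA is given. The most abundant coding transcripts of the 10 genes had a median length of 1828 bases with 433 uridines, or 22.6%, and those of all 9111 genes with such a transcript had a median of 2258 bases with 551 uridines, or 24.5%. Gapdh had the lowest share of the 10, 20.5%, at the 13.1 percentile, and Pgam1, the gene with the largest exonic difference, had 23.6%, at the 40.6 percentile. Hk2 was the longest, at 5513 bases and 1338 uridines. The part of uridine content in the exonic differences was not tested.

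Of 17 other enzymes and isozymes of glycolysis, 10 were tested for exons and 1 was lower, Pkm, the pyruvate kinase gene (2651 ± 123 in labeled and 3606 ± 155 in total RNA; log2 difference -0.44, adjusted p = 0.00381; SD, n = 6 each). Its groups did not overlap. Ldhb, a further lactate dehydrogenase subunit gene, did not pass (6024 ± 696 in labeled and 5503 ± 352 in total RNA; log2 difference 0.12, adjusted p = 0.411), nor did Pfkp, the platelet-type phosphofructokinase gene (3289 ± 771 in labeled and 3564 ± 474 in total RNA; log2 difference -0.14, adjusted p = 0.600). Aldoc, Eno3 and Hk1 also did not pass, at log2 differences of -0.36, -0.02 and -0.41. The 10 ran from -0.44 to 0.43, with a median of -0.11, and 1 of 10 is near the 11.6% of all genes that were lower. For introns 9 of 14 were higher and none lower, and for the ratio 5 of 10, against 30.2% and 25.5% of all genes. Of these, 3 and 1 had a mean intronic value under the minimum of 5 in total RNA and were tested only through labeled RNA, which favors that direction.

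Of 8 genes of glucose and lactate transport, 5 were tested for exons and 3 were lower, against 11.6% of all genes. They were Slc16a1, which encodes the lactate transporter MCT1 (119 ± 35.8 in labeled and 221 ± 19.0 in total RNA; log2 difference -0.95, adjusted p = 0.00739; SD, n = 6 each), Slc2a3, a glucose transporter gene (1565 ± 315 in labeled and 2113 ± 105 in total RNA; log2 difference -0.46, adjusted p = 0.0325), and Bsg, which encodes basigin, a chaperone of lactate transporters (1309.7 ± 87.2 in labeled and 1739 ± 182 in total RNA; log2 difference -0.40, adjusted p = 0.0191). Slc2a1, a further glucose transporter gene, did not pass (1124 ± 419.8 in labeled and 1192 ± 235 in total RNA; log2 difference -0.14, adjusted p = 0.707), nor did Slc16a3, a lactate exporter gene (138 ± 29.3 in labeled and 117 ± 9.39 in total RNA; log2 difference 0.22, adjusted p = 0.308). The median was -0.40.

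None of the 7 tested regulators of glycolytic flux passed for exons in either direction, with log2 differences of -0.43 (Galm) to 0.31 and a median of 0.02. Pfkfb1, Pfkfb2 and Pfkfb3, whose products make the sugar phosphate that activates phosphofructokinase, had log2 differences of 0.02, -0.37 and 0.31. In the pentose phosphate pathway 1 of 7 was lower, Tkt, the transketolase gene (205 ± 43.4 in labeled and 295 ± 49.2 in total RNA; log2 difference -0.54, adjusted p = 0.0482). Rpe, G6pdx, Pgd and Taldo1 did not pass, at -0.40, -0.32, -0.31 and -0.12, nor did the less abundant Pgls and Rpia, at 0.61 and 0.33, and the median was -0.31. Of 13 genes of pyruvate entry into mitochondria, 1 was lower, Pdha1, which encodes a subunit of pyruvate dehydrogenase (587 ± 99.6 in labeled and 763 ± 29.3 in total RNA; log2 difference -0.40, adjusted p = 0.0445). Dlat, Dld, Pdk1, Pdhb and Mpc1 did not pass, at -0.41, -0.41, -0.15, 0.05 and -0.14; the 13 ran from -0.41 to 0.59 (Pdk4), with a median of -0.21. Of 6 gluconeogenesis genes only Pck2 was tested for exons, and it did not pass (0.35). The 1 of 7 and 1 of 13 genes lower stand against 11.6% of all genes.

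In the HIF pathway, which can induce glycolysis genes in low oxygen, 12 of 13 listed genes were tested for exons, 2 of them lower and 1 higher, near the 11.6% and 5.28% of all genes. Hif1a, which encodes the oxygen-regulated subunit, was lower (642 ± 98.6 in labeled and 972 ± 163 in total RNA; log2 difference -0.59, adjusted p = 0.0162; SD, n = 6 each), as was Arnt, the gene of its partner (1003 ± 280.1 in labeled and 1569 ± 243 in total RNA; log2 difference -0.69, adjusted p = 0.0451). Ankrd37, known as a HIF target, was higher (86.6 ± 17.2 in labeled and 44.1 ± 10.4 in total RNA; log2 difference 0.97, adjusted p = 0.00628). Vegfa and Bnip3, also known as targets, did not pass, at 0.29 and -0.14. Of 8 immediate early genes, whose mRNAs are known to be short-lived, 3 were tested and 2 were higher, against 5.28% of all genes, Ier2 (60.9 ± 18.3 in labeled and 22.4 ± 3.99 in total RNA; log2 difference 1.36, adjusted p = 0.00435) and Egr1 (451 ± 99.1 in labeled and 306 ± 54.7 in total RNA; log2 difference 0.55, adjusted p = 0.0250), while Myc did not pass (0.16). Of the 8 pluripotency markers 1 was lower, Pou5f1 (1161 ± 93.6 in labeled and 1645 ± 121 in total RNA; log2 difference -0.50, adjusted p = 0.00558), and none was higher. The 1 of 8 is near the 11.6% of all genes that were lower, and 5.28% of all genes were higher.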

How the data were processed

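RNA of 6 labeled and 6 total libraries was analyzed. Per the labels' processing notes, the authors used STAR 2.5.0, RSEM and mm10. The deposited values are a signal, a length-normalized abundance per transcript with exons and introns scaled together; the scaling was inferred from the sums, the lowest value was 1.01, and missing entries were set to 0. Read depth is unknown, so no counting intervals are given. Transcripts were assigned to genes by ID with GENCODE M1 (69.1% of exon entries matched), without its coordinates; Pkm, Tigar, Mpc1 and Mpc2 were found under older symbols, and Sox1 was not used here. Genes with a mean of at least 20 (exonic) or 5 (intronic) were tested on log2(value + 1), which understates changes of low genes, with limma 3.58.1 in R 4.3.3 (mean-variance trend, Benjamini-Hochberg, threshold 0.05). Labeled against total RNA was fitted with labeling time as covariate, and single times as contrasts of 6 group means that share one estimate of the spread. The labels number the biological replicates and describe them as divided from a single culture, so a replicate block was also fitted; the departures from the group means of labeled and total libraries with the same number correlated at -0.07, 0.05 and -0.19 at 15, 30 and 60 min.

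All 10 genes are named; from each pathway list, counts and up to 6 genes of mean exonic value at least 100, by level, and genes outside this rule, Ankrd37, Ier2, Pck2, Pfkfb2, Galm, Pgls, Rpia, Pdk4 and Pou5f1, were chosen after their values were seen. Named isoforms were also chosen after their values were seen. Of the genes most like the 10 in profile, 1 is not reported here. The genes and lists were chosen with earlier results of these data known. The fits were tested on simulated data. Alternatives were another pseudocount, filters, a common median, the block, transcripts and left-out libraries. Python 3.11.15, pandas 2.3.3 and matplotlib 3.10.9 were used for the rest.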

Additional observations from a re-analysis of the deposited data

Results flagged for a closer look

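The spread within the 6 libraries of a fraction was examined for 60 combinations of gene, measure and fraction, of which chance alone is expected to single out about 3, and 3 were singled out by a library far from the others. The exonic value of Gapdh in total 30 min replicate 1, 1.005e+05, was below the other 5 total libraries (1.102e+05 to 1.141e+05). The intronic value of Tpi1 in total 60 min replicate 2, 19.46, was above the other 5 (5.34 to 6.16), and with it its intronic value as percent of the exonic value, 2.167% against 0.708% to 0.9233%.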

How the results depend on the processing

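Leaving Hk2 aside, the exonic log2 difference of the other 9 genes was below 0 in all 197 alternatives computed, the ratio was above 0 in all 187, and the intronic difference was above 0 in 195 of 196, the exception being Gpi1 at -0.1831 with libraries shifted to one median. The replicate block left 1 of the 10 genes lower for exons and 1270 of all genes changed, and 0 at 30 min; for the ratio it changed no call of the 10 genes. With the numbers crossed at 60 min, where the correlation was below -0.1, 7 of the 10 genes passed for exons, and 1795 of 13977 genes were lower. Transcripts in place of genes gave 7888 exonic, 13001 intronic and 7103 ratio calls, since more features were tested. For introns a stricter filter gave 2976 calls from fewer genes tested, and a common median 1818, with 3 of the 10 genes higher and Hk2 lower (-0.86, adjusted p = 0.0385). Without the labeled libraries of low intronic share, an alternative chosen after seeing the data like the other single-library and Hk2-004 ones, there were 13186 intronic and 8456 ratio calls, a rise that follows from the choice by intronic share. Leaving out 1 library or 1 replicate gave 0 to 2931 exonic, 1833 to 8052 intronic and 435 to 6263 ratio calls over all genes, with 0 to 7, 4 to 8 and 3 to 9 of the 10 genes. No exonic call remained without replicate 1, where each group is 1 library. The Hk2 difference then ran from -0.3021 to 0.1036 for exons and -0.3727 to 0.2174 for the ratio, above 0 for exons without replicate 1 (0.1036), labeled 15 min replicate 2 (0.0641), labeled 60 min replicate 1 (0.0699) or total 15 min replicate 2 (0.0254), and for the ratio without replicate 2 (0.216), labeled 60 min replicate 2 (0.2174), total 60 min replicate 2 (0.0583) or the libraries of low intronic share (0.1224). Hk2 also turned in the transcript fit (0.6843 for introns, 0.9647 for the ratio) and without Hk2-004 (0.7189 and 0.8783). At 15, 30 and 60 min the exonic calls over all genes were 3, 7 and 1 with a pseudocount of 10, and 9, 16 and 6 without a filter; for the change from 15 to 60 min they were 4 and 8, for total RNA at 60 against 15 min 4 and 8, and for labeled RNA 6 without a filter. A stricter filter left 0 at 30 min, and a common median gave 4 at 15 min and 3 for total RNA. Single libraries left out gave 0 to 3, 0 to 27 and 0 to 520 at 15, 30 and 60 min, with 0 to 2 of the 10 genes at 60 min, 0 to 11 for the change, 0 to 8 for labeled and 0 to 7 for total RNA. The median rate of the 10 genes over that of all genes, at 12.41, 12.44 and 0.6776 for synthesis, processing and degradation, was 13.05, 18.11 and 0.7086 with the median over times, 16.11 for processing by the most abundant transcript, and 0.6597 to 0.6791 for degradation with 1 replicate. The cause of these changes was not tested except where fewer or more features or samples were named. Depth is unknown and limits no statement by number.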
